A study of Rattus norvegicus with 8 samples.

Results

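The cytosolic ribosomal protein genes of the rat carotid artery were examined 2 weeks after intimal injury. They were taken from the gene table by name: symbols that start with Rpl or Rps and a digit, together with Rpsa, Rplp0, Rplp1 and Rplp2. Ribosomal S6 kinases, pseudogenes and hyphenated names were dropped, and a gene had to reach 80 counts summed over all libraries. This gave 84 of the 37209 genes of the table. Male Sprague-Dawley rats, on average 400 g in weight, had the left carotid artery injured with a balloon catheter, and mRNA sequencing was performed on 4 injured arteries (injury 1 to 4) and on 4 undamaged right carotid arteries that served as self-control (control 1 to 4). The rats were under isoflurane anesthesia for the injury. No genetic change or other drug is named for either group, and the age of the rats and the animal behind each library are not stated. The balloon model removes the endothelium of a healthy artery. Each library holds bulk RNA, and the paper does not state which layers of the harvested artery were taken for it. No statement ties an equal number in both groups to a shared animal. Except where the replicate number is a block, the tests below therefore leave out the pairing of left and right arteries. Their p-values set the difference between the groups against the spread within the groups of these 8 libraries.

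Each cytosolic ribosome is built from a large and a small subunit, and each ribosomal protein sits at a fixed place in 1 of them around the ribosomal RNA. Growing cells make these proteins in matched amounts, and most of their mRNAs start with a C followed by a run of C and T, the 5′ terminal oligopyrimidine (TOP) tract, through which the mTORC1 kinase controls their translation. In injured arteries, smooth muscle cells leave the contractile state, divide and lay down matrix, work that needs ribosomes.

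The letters around the annotated transcript start are shown for members on which the comparisons below turn, because the TOP tract is the feature by which this family is usually recognised. Each line gives the 15 bases before and the first 15 bases after the start, 5′ to 3′ on the gene's own strand, and capitals mark a tract, here a C within 5 bases of the start that is followed by at least 4 letters that are C or T.
Rplp1: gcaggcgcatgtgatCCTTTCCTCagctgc
Rps27: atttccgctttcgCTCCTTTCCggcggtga
Rplp0: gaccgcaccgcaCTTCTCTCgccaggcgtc
Rps4x: tccagcgcgcgcagCCTCCgaccctaattt
Rps4y2: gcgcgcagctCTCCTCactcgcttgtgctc
Rps27l: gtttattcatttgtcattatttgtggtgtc
Rpl6: tatttttacatcactagatggcgggtgaaa
The sequences are those of RefSeq on the GRCr8 build, matched by symbol. They lie at chr8:71290858-71290887 on the minus strand for Rplp1, chr2:177964592-177964621 on the minus strand for Rps27, chr12:46718376-46718405 on the minus strand for Rplp0, chrX:71342907-71342936 on the minus strand for Rps4x, chr4:183000898-183000927 on the plus strand for Rps4y2, chr8:76443643-76443672 on the plus strand for Rps27l and chr12:41011676-41011705 on the minus strand for Rpl6. Rplp1, Rps27, Rplp0 and both Rps4 genes had a tract at the annotated start, while Rps27l and Rpl6 had none in this window. Of the 84 members, 65 had a RefSeq window, and 36 of these (55.4%) held a tract. Among the 55 windows of classical ribosomal protein genes it was 35 (63.6%), against 18 of 66 (27.3%) for the proteins of the mitochondrial ribosome and 5704 of 33469 (17%) for all windows of this length. Only the gene's own strand was searched, and a window without the tract says only that these letters are absent near that annotated start.

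Of 77 classical ribosomal protein symbols, 76 stood in the table and 70 were members, 40 of the large and 30 of the small subunit. The other 14 members were gene copies and diverged relatives such as Rps15al1, Rps17l, Rps4y2 and Rpl3l, and Rps19bp1, which binds a ribosomal protein but is not one. A further 18 named genes stayed under 80 counts. Of these, 7 were at 0 in all 8 libraries, among them Rpl10, Rpl35a, Rpl36a and Rpl39, and 11 had 1 to 79 counts, among them Rpl7a with 39 and Rps19 with 14. Many ribosomal protein genes have near-identical copies elsewhere in the genome, and how reads that match several copies were counted is not given in the sources used here. Counts of genes with such copies are therefore uncertain, and the low ones were not read as low mRNA levels. The members spanned 84 to 135090 summed counts, and the 10 with the most counts held 41.9% of all counts of the family. The low-count filter of edgeR left 83 members for testing, all but Rpl3l.

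The libraries held between 11459632 and 16658089 counts, so that 3 counts, taken as the floor of detection, stood at 0.18 to 0.262 CPM, the count scaled to the size of its library. Contractile smooth muscle genes were read in every library, with a sum over 10 genes of 18100 to 52400 CPM in the controls and 10900 to 17100 CPM after injury, and 7 of the 10 were called lower after injury, that is, they passed a false discovery rate (FDR) of 0.05 and changed over 2-fold, against 2.57% of all genes tested. All CPM values other than the floor of detection are given after TMM scaling of the library sizes. Macrophage genes were called higher in 10 of 10 cases, proliferation genes in 8 of 8, skeletal muscle genes in 7 of 9 and T cell genes in 3 of 8, against 8.31% of all genes, while of 9 endothelial genes 2 were higher and 1 was lower. Sympathetic neuron genes summed to 9009 CPM in control 4 and 1952 CPM in injury 3, against 13.5 to 143 CPM in the other libraries. The extraction text of the labels speaks of brain tissue where the other labels name the carotid artery.

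The cytosolic ribosomal protein genes took overlapping shares of the counts in injured and control arteries. They held 1.926, 1.881, 1.736 and 1.311% of all counts in control 1 to 4 and 2.069, 1.938, 1.715 and 1.997% in injury 1 to 4. The groups overlapped, and control 4 and injury 3, the libraries rich in neuron genes, were each the lowest of their group. The mean share was 1.71 ± 0.280% (SD, n = 4) in the controls and 1.93 ± 0.153% (SD, n = 4) after injury, a difference of 0.216 percentage points, which was smaller than the SD of 0.226 points between libraries of a group. Without control 4 and injury 3 the means were 1.85 ± 0.0993% (SD, n = 3) and 2.00 ± 0.0656% (SD, n = 3), the difference of 0.154 points exceeded both SDs, and the ranges no longer overlapped, with 1.926% as the highest control and 1.938% as the lowest injured artery. Both libraries were left out after the data were seen. The shares are of plain library totals. The TMM factors that multiply the totals were 0.9096, 0.9059 and 0.9485 in control 1 to 3. They were 1.079, 1.031 and 1.068 in injury 1, 2 and 4, so the separation without control 4 and injury 3 does not hold after TMM scaling. When the library totals were replaced by TMM effective totals, the difference over all 8 libraries was -0.0201 points. In bulk RNA, fewer cells of a type and less RNA per cell cannot be told apart.

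The balance of the subunits overlapped between the groups as well. The ratio of large to small subunit counts was 1.669, 1.679, 1.655 and 1.717 in control 1 to 4. After injury it was 1.773, 1.749, 1.674 and 1.738. The injured arteries were higher on average, at 1.73 ± 0.0423 against 1.68 ± 0.0266 (SD, n = 4), a difference of 0.0535 that exceeded both SDs, but injury 3 lay among the controls and control 4 lay above it. Without control 4 and injury 3 the means were 1.75 ± 0.0179 after injury and 1.67 ± 0.0121 in the controls (SD, n = 3). Every injured artery, from 1.738 up, then lay above every control, up to 1.679. Both libraries were left out after the data were seen, and the overlap had come from injury 3, so this separation was not tested. Counts grow with transcript length, so the ratio compares libraries with each other and does not give molar amounts.

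**Figure D1:**
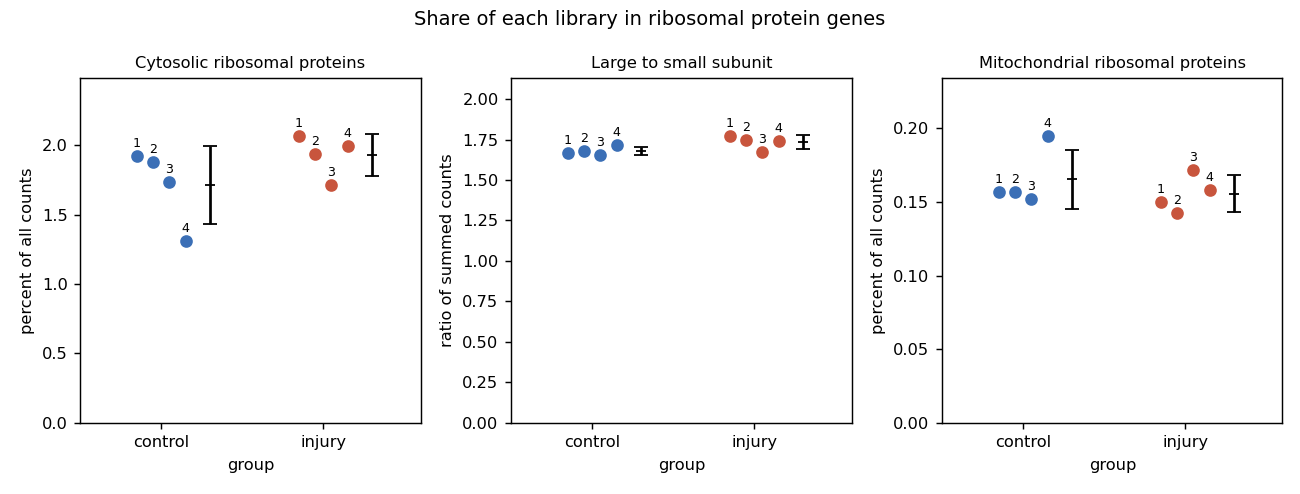
Percent of all counts in cytosolic ribosomal protein genes (left), ratio of large to small subunit counts (middle) and percent of all counts in mitochondrial ribosomal protein genes (right) for each numbered artery, with mean and SD (n = 4) beside the points. The groups overlap in each panel, and control 4 has the lowest cytosolic share (1.311%) and the highest mitochondrial share (0.1949%).

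None of the 83 members tested passed both an FDR of 0.05 and a fold change above 2 in either direction, whereas 10.9% of the 14359 genes tested met these criteria. By the FDR alone, edgeR's quasi-likelihood test passed 1 member, Rplp1, which fell, against a background of 17.2% of all genes. At an unadjusted p under 0.05 it passed 11 members, 3 higher and 8 lower after injury, against 31.1% of all genes. DESeq2 passed 5 members by the FDR alone, 2 higher and 3 lower, against 21.2% of all genes (12.3% higher and 8.95% lower). Its 1 call with a fold change above 2, against 12.7% of all genes, was Rpl3l, which was also 1 of the 2 higher ones and is no evidence of a direction, since it has no count in any control. When library totals replaced TMM scaling, 4 members passed, all of them higher (Rpl6, Rps2, Rpl41 and Rpl5l1, the last pair named after their values were seen), against 18.5% of all genes (15.4% higher and 3.09% lower).

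The members moved little. The median log2 fold change, injury minus control, was -0.05 over the members and -0.06 over all genes tested, with 38 members above 0 and 45 below. The interquartile range of the members ran from -0.25 to 0.09, while that of all genes ran from -0.39 to 0.32. An absolute log2 fold change under 0.5 was found for 75 of 83 members (90.4%) and for 61.6% of all genes. The 95% interval lay wholly within a 2-fold change in either direction for 70 of the 82 members with an interval (85.4%), against 52.6% of all genes. Since most members are counted deeply, genes with a mean of at least 100 CPM were also looked at alone, where the interval lay within 2-fold for 46 of 48 members (95.8%) and for 63% of 1931 genes. The 40 large subunit members had a median log2 fold change of -0.04, the 30 small subunit members -0.07 and the 12 other gene copies 0.03.

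**Figure D2:**
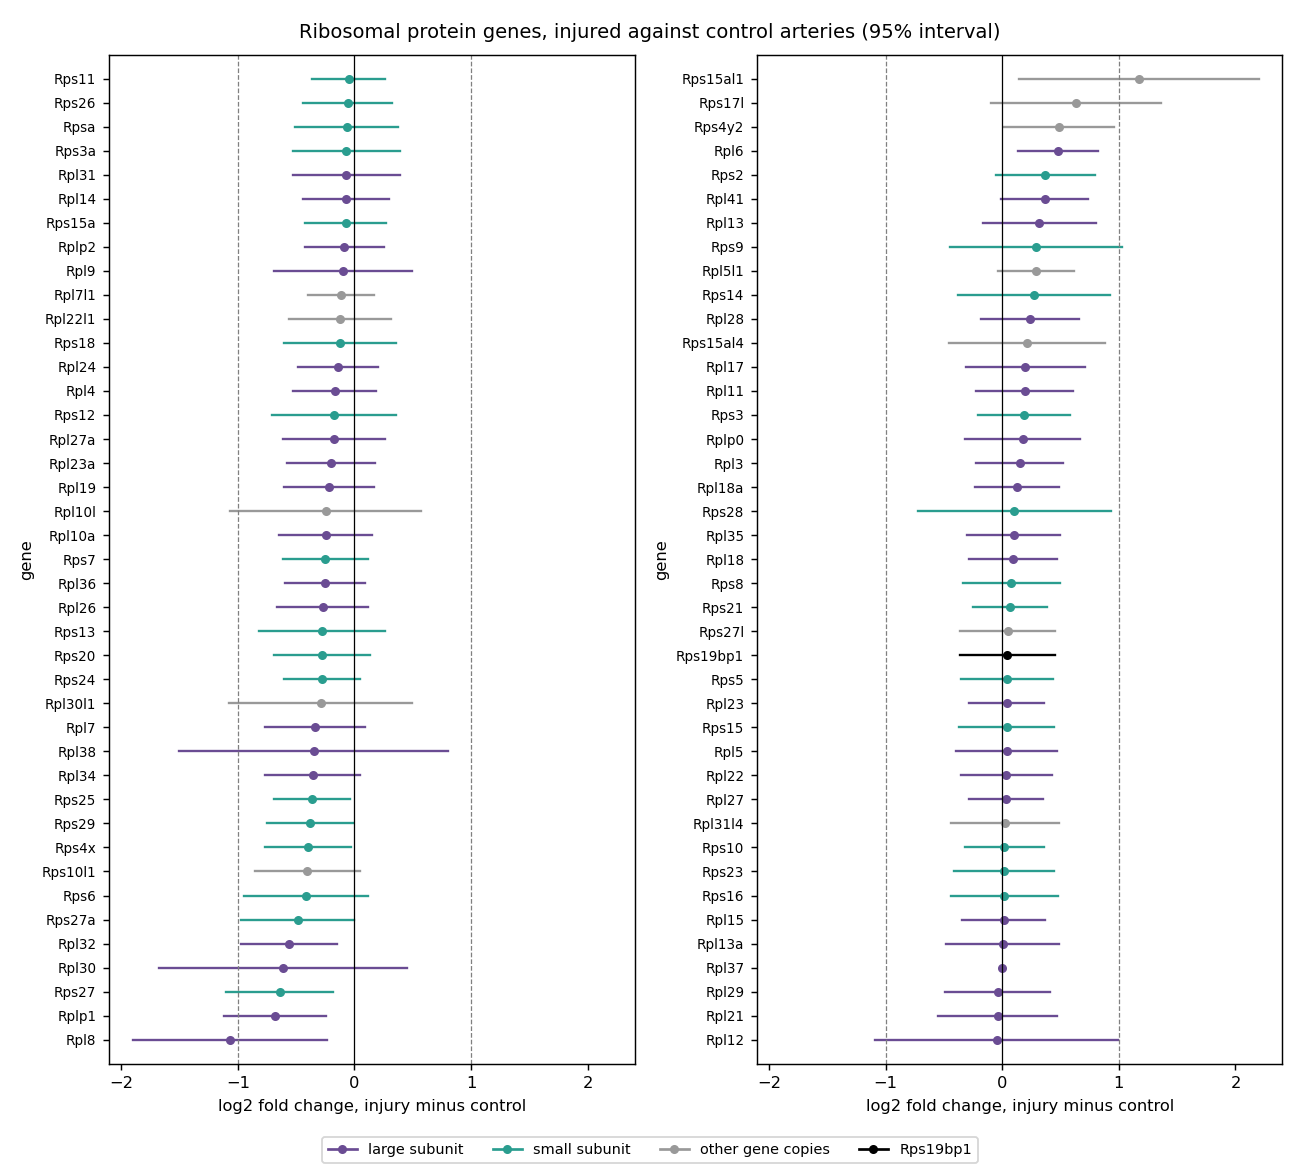
Log2 fold change, injury minus control, of 82 of the 83 members tested, sorted by value, with 95% intervals from edgeR's quasi-likelihood fit (dots without a bar have no interval) and dashed lines at a 2-fold change. Most intervals lie between the dashed lines and cross 0, and those that reach past them belong mostly to genes with few counts such as Rpl8 and Rps15al1.

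The stalk of the large subunit, which recruits translation factors, holds Rplp0 and the acidic proteins Rplp1 and Rplp2. Rplp1 stood at 158.8, 165.8, 140.3 and 100.8 CPM in control 1 to 4 and at 85.47, 68.55, 101 and 98.27 CPM in injury 1 to 4. Control 1 to 3 lay above every injured artery, while control 4 lay just below injury 3, so the groups touched. The mean dropped from 141 ± 29.1 to 88.3 ± 14.8 CPM (SD, n = 4), and the fitted log2 fold change was -0.68 (standard error 0.19, edgeR adjusted p = 0.0447). This call was lost with 7 of the 8 arteries left out in turn (adjusted p under 0.05 only without control 4), with the replicate block (0.142), with upper-quartile scaling (0.0904) and with both (0.225), with library totals only (0.0982), without a filter (0.0615) and with a minimum of 10 counts in each library (0.055), and the direction held in each of them. Its partners did not follow. Rplp0, the scaffold of the stalk, had 1313, 1260, 1110 and 692 CPM in the controls and 1311, 1277, 1068 and 1278 CPM after injury. Apart from control 4 the Rplp0 groups covered nearly the same range, and its log2 fold change was 0.17 (standard error 0.22, edgeR adjusted p = 0.628). Rplp2 had a log2 fold change of -0.09 (standard error 0.15, edgeR adjusted p = 0.729).

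Among the other large subunit proteins, Rpl6 was the member whose injured arteries all lay above the controls. Rpl6 had 242.6, 232.3, 208.8 and 178.1 CPM in the controls and 321.1, 335.2, 248.9 and 293.5 CPM after injury. Every injured artery was above every control, which held for 1 member against 14.2% of all genes in that direction. The log2 fold change of Rpl6 was 0.48 (standard error 0.15, edgeR adjusted p = 0.0628), and DESeq2 gave an adjusted p of 0.0331. Rpl6 passed the FDR without control 4 (0.39) or without injury 3 (0.55) and with library totals only (0.66). In the opposite direction, Rpl32, Rpl8 and the small subunit gene Rps20 did not overlap in CPM, 3 members against 9.51% of all genes. Rpl32 had 8.355, 10.58, 8.732 and 7.089 CPM in the controls and 5.921, 5.441, 5.56 and 6.627 CPM after injury. The gap between the lowest control and the highest injured artery was narrow, and the log2 fold change was -0.56 (standard error 0.18, edgeR adjusted p = 0.0684). Rpl8 was read in only 28, 14, 28 and 19 counts in the controls and 14, 12, 7 and 12 after injury. Rpl8 had the lowest fitted log2 fold change of the family, -1.07 (standard error 0.36, edgeR adjusted p = 0.0826), which rests on 134 counts in all.

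Rpl5 and Rpl11, which carry the 5S ribosomal RNA into the large subunit and bind Mdm2 when ribosome assembly stalls, had log2 fold changes of 0.04 (standard error 0.19) and 0.19 (standard error 0.18). Of the proteins that line the tunnel through which the new chain leaves, 7 were measured (Rpl4, Rpl17, Rpl19, Rpl23a, Rpl26, Rpl31 and Rpl35). None passed the FDR with all arteries. Their log2 fold changes ran from -0.27 for Rpl26 to 0.20 for Rpl17. Without control 4, Rpl19 (-0.35, edgeR adjusted p = 0.0377) and Rpl23a (-0.33, edgeR adjusted p = 0.0352) passed it, against 12.9% of all genes lower. Rpl30, at -0.62 (standard error 0.46, edgeR adjusted p = 0.41), varied widely between the arteries of each group. Rpl7 and Rpl34 stood at -0.34 and -0.36 with all arteries.

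In the small subunit, Rps27, a zinc finger protein, had 238.3, 265, 229.4 and 144.6 CPM in the controls and 143.7, 114.4, 153.1 and 151.5 CPM after injury. As with Rplp1, control 1 to 3 were above every injured artery and control 4 was among them. The log2 fold change of Rps27 was -0.64 (standard error 0.20, edgeR adjusted p = 0.0628), with a DESeq2 adjusted p of 0.0168. Rps27a, which is made as a fusion with ubiquitin, had a log2 fold change of -0.49 (standard error 0.21, edgeR adjusted p = 0.157). Rps25, Rps29 and Rps4x had -0.36, -0.38 and -0.40, each with an unadjusted p under 0.05 and an adjusted p over it.

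Of the small subunit proteins around the mRNA channel none passed the FDR. Rps2, at the channel entry, had 307.7, 288.5, 267.2 and 178.1 CPM in the controls and 344.8, 371.6, 290.3 and 338.7 CPM after injury. Injury 3 was below control 1 and the other injured arteries were above all controls, with a log2 fold change of 0.37 (standard error 0.19, edgeR adjusted p = 0.218). Its neighbours Rps3 and Rps9 had 0.18 (standard error 0.17) and 0.29 (standard error 0.32). At the exit, Rpsa, which is also known as the laminin receptor, had 1385, 1369, 1250 and 817 CPM in the controls and 1207, 1202, 1030 and 1169 CPM after injury. The injured Rpsa values fell inside the range of the controls, and its log2 fold change was -0.06 (standard error 0.19). Rps14, Rps26 and Rps28, also at the exit, had 0.27, -0.06 and 0.10. Rps7, Rps10, Rps24, Rps26, Rpl5 and Rpl11 are some of the genes mutated in Diamond-Blackfan anemia, a failure of red cell formation. The list is not complete. The log2 fold changes of those named in this list ran from -0.28 for Rps24 to 0.19 for Rpl11, with -0.25 for Rps7 and 0.02 for Rps10. Without control 4, Rps7 (-0.37, edgeR adjusted p = 0.0314) and Rps24 (-0.37, edgeR adjusted p = 0.0403) passed the FDR.

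**Figure D3:**
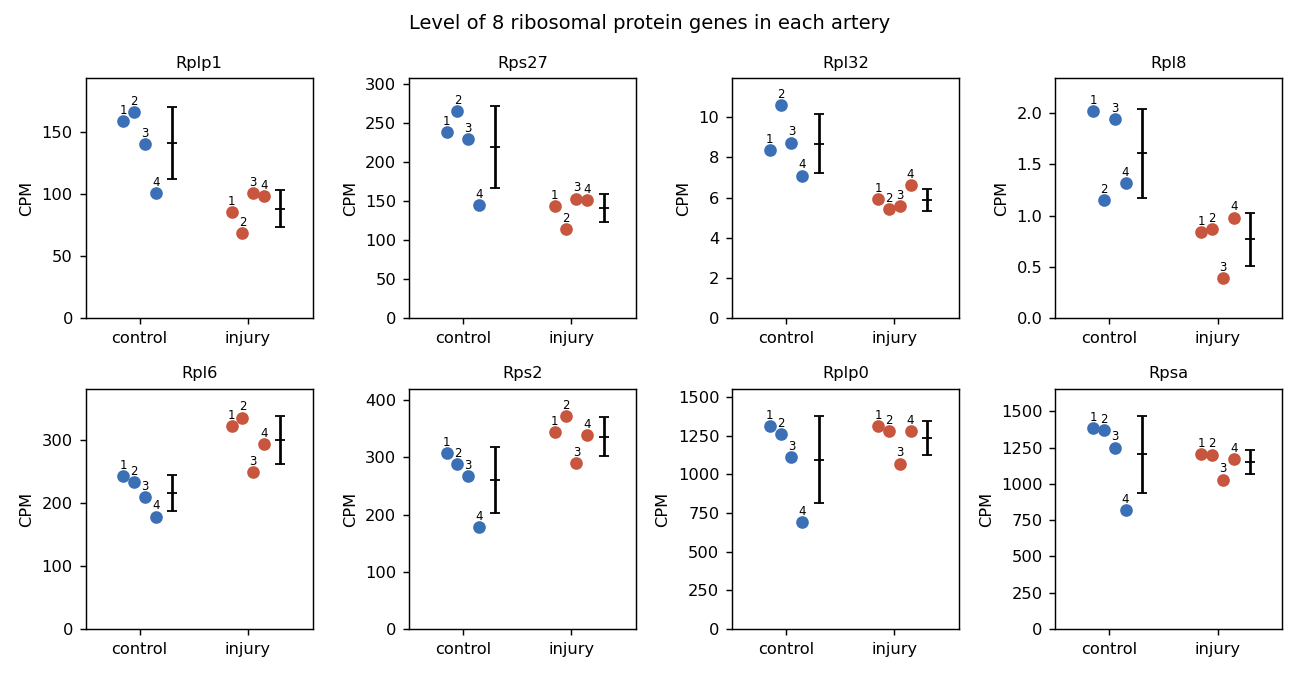
CPM of 8 members in each numbered artery, with the mean and SD (n = 4) beside the points and each axis starting at 0. In Rplp1 and Rps27 controls 1 to 3 lie above all injured arteries while control 4 lies among them, in Rpl6 every injured artery lies above every control, and in Rplp0 and Rpsa control 4 alone stands below the rest.

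The gene copies and relatives held the highest fold changes. Rps15al1, a copy of Rps15a, was read in 17, 4, 7 and 14 counts in the controls and 30, 25, 19 and 27 after injury. The groups were separate in counts but overlapped in CPM, and the log2 fold change was 1.17 (standard error 0.45, edgeR adjusted p = 0.116). Rps17l had 7.779, 3.691, 3.881 and 3.197 CPM in the controls and 5.383, 7.544, 7.469 and 8.346 CPM after injury. Control 1 lay within the injured range, and the log2 fold change was 0.63 (standard error 0.32, edgeR adjusted p = 0.219). Without control 1 the log2 fold change of Rps17l was 0.99 (edgeR adjusted p = 0.0322). Rpl10l had -0.25 (standard error 0.36), and Rps19bp1, the gene that is no ribosomal protein, had 0.04 (standard error 0.18).

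Rpl3l, the form of Rpl3 made in heart and skeletal muscle, was not read in any control and had 36, 4, 12 and 32 counts in injury 1 to 4. All of its 84 counts, which just reach the limit of 80, came from injured arteries, so it entered the family only through the group where it was high. On plain library totals, and set against the floor of 3 counts in each control library, the injured mean stood at least 7.46-fold higher. This value describes the counts that brought Rpl3l into the family and is no support for a difference. Injury 2, with 4 counts, lay near that floor. Rpl3l was too low for the filter of the main comparison, and since the group difference itself brought it into the family, no p is given for it. The 9 skeletal muscle genes summed to 84.5 to 253 CPM in the controls and 304 to 1100 CPM after injury, none of them at 0 in every library. Ckm, the muscle creatine kinase, had 518, 316, 357 and 158 counts in the controls and 1193, 330, 463 and 1570 in injury 1 to 4, highest in the arteries where Rpl3l was highest. Acta1 and Tnnt3 also had at least 140 counts in each control, while Myh1, Myh2, Myh4, Tnni2, Mylpf and Actn3 had at most 9. Myh1 had 1, 3, 4 and 6 counts in the controls and 2280, 1309, 1416 and 2684 in injury 1 to 4. The part of skeletal muscle RNA in the Rpl3l counts was not tested.

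Within a library, the ratio of a paralog to its parent does not depend on the scaling, and 4 pairs were compared by an exact two-sided permutation test over all 70 relabellings, with Benjamini-Hochberg adjustment. The smallest p that 4 arteries against 4 allow is 0.0286. For Rps27l, a p53-responsive relative of Rps27, the count was 10.3, 12.5, 10.3 and 13.7% of the Rps27 count in the controls. After injury it was 16.4, 26.5, 15.6 and 17.4%, in counts that were not divided by transcript length. All injured arteries were above all controls, and the log2 ratio was 0.68 higher (exact permutation p = 0.0286, adjusted p = 0.0571 over the 4 pairs), which did not pass after adjustment, while Rps27l itself had a log2 fold change of 0.04 (standard error 0.18). A ratio alone does not show which gene of a pair moved. For Rps4y2 against the X-linked Rps4x the count was 4.83, 6.65, 5.76 and 7.65% of the parent in the controls and 9.75, 8.84, 14.4 and 12% after injury. These groups did not overlap either, and the log2 ratio was 0.85 higher (exact permutation p = 0.0286, adjusted p = 0.0571 over the 4 pairs), which also missed the threshold, with log2 fold changes of 0.49 (standard error 0.21) for Rps4y2 and -0.40 (standard error 0.16) for Rps4x.

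The pair of Rpl3l and Rpl3 was not tested, because the 0 counts of Rpl3l in the controls fix the outcome, and counting it among the pairs would lower the adjusted p of the pairs above to 0.0476. Rpl3 had a log2 fold change of 0.15 (standard error 0.16). The remaining pairs overlapped between the groups. The log2 ratio of Rpl7l1 to Rpl7 was 0.20 higher (exact permutation p = 0.2, adjusted p = 0.267) and that of Rpl22l1 to Rpl22 was 0.20 lower (a difference of -0.20, exact permutation p = 0.4, adjusted p = 0.4). Rpl22l1 and Rpl22 stood at -0.12 and 0.03 in log2 fold change and Rpl7l1 at -0.12.

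**Figure D4:**
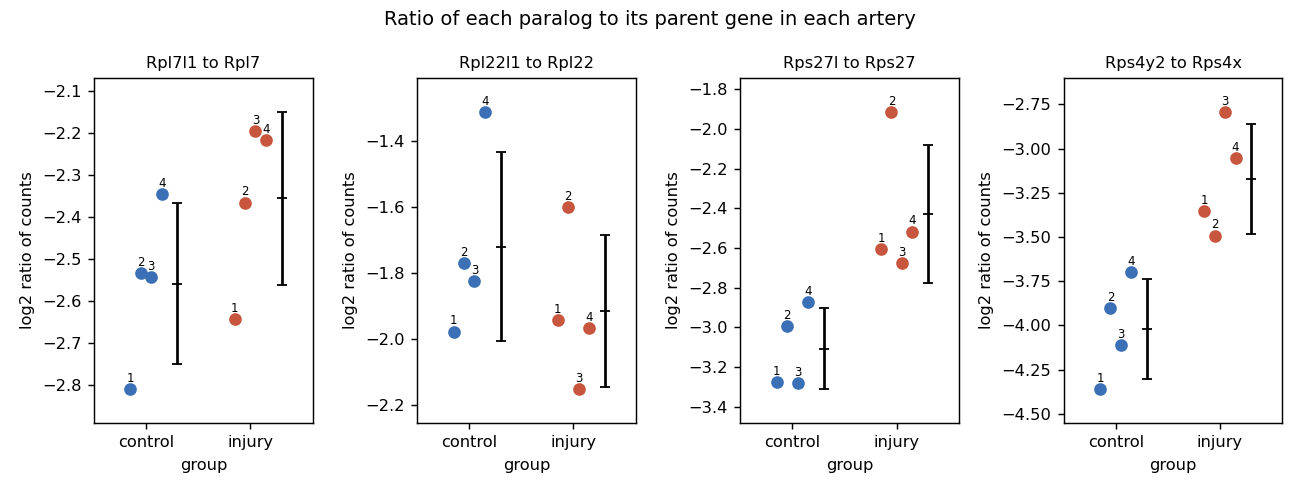
Log2 ratio of the counts of a paralog to those of its parent gene in each numbered artery, with mean and SD (n = 4) beside the points, for the 4 pairs read in every library. The groups overlap for Rpl7l1 and Rpl22l1 and are separate for Rps27l and Rps4y2, where the injured arteries lie 0.68 and 0.85 higher on average.

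Control 4 bore on nearly every member. It had the lowest CPM of the 4 controls in 71 of 83 members, which was so for 39.9% of all genes tested, and the lowest of all 8 arteries in 56 members (26.5% of all genes). Without it, 20 of 84 members passed the FDR in edgeR's test, 2 higher and 18 lower after injury, against a background of 17% of genes higher and 12.9% lower. The median log2 fold change of the members was then -0.15, while that of all genes was 0.03. The lower ones counted 8 large subunit genes, 9 small subunit genes and 1 other copy, and each changed by less than 2-fold. Rplp1 led them at -0.82 (edgeR adjusted p = 0.00496), and others were Rps27 at -0.80 (edgeR adjusted p = 0.00272), Rpl32 at -0.65, Rps27a at -0.63, Rps6 at -0.60 and Rps4x at -0.54. Rpl6, at 0.39 (edgeR adjusted p = 0.0471), and Rpl3l were the higher ones, and without Rpl3l, which has no count in any control, the number passing was 19.

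With control 4 and injury 3, the neuron-rich libraries, both left out, 16 of 83 members passed, 2 higher and 14 lower, against a background of 18.9% higher and 15.9% lower. Of these 16, 15 had also passed without control 4 alone, and the other was Rps15al1 at 1.48 (standard error 0.50, edgeR adjusted p = 0.0494). The members' median log2 fold change was -0.08 and that of all genes was 0.0024. The sums of neuron genes that set these libraries apart are given above, and their part in the result was not tested. When the members' own total replaced the library size, so that each gene was set against the rest of its family, Rpl6 (0.47) and Rps2 (0.39) were higher and Rplp1 (-0.64) and Rps27 (-0.60) lower by the FDR with all 8 arteries, 4 members against a background of 13.3% of all genes.

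**Figure D5:**
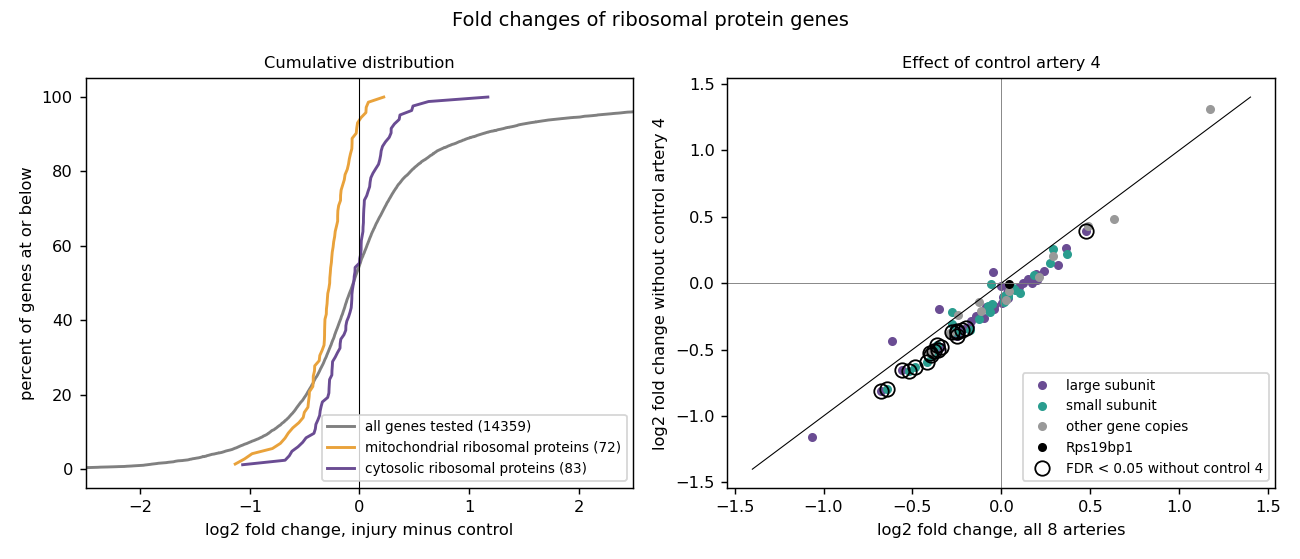
Left, cumulative percent of genes at or below a log2 fold change (injury minus control) for all genes tested, mitochondrial ribosomal proteins and cytosolic ribosomal proteins. Right, log2 fold change of each member with all 8 arteries against that without control 4, where most points lie below the line of equality and 19 of the 83 members plotted have an FDR under 0.05 (circled).

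Genes that serve the ribosome but are not part of it were counted for comparison. Of 46 translation factor genes tested, 1 was called lower with the fold criterion, against 2.57% of all genes. This was Eif5a2, the rarer form of the factor that helps form difficult peptide bonds (log2 fold change -1.32, standard error 0.38, edgeR adjusted p = 0.0473). By the FDR alone 1 was higher and 5 were lower, against 10.8% of all genes higher and 6.39% lower. The higher one was Eif4b (log2 fold change 0.68, edgeR adjusted p = 0.0279). The lower ones included Eef2k (log2 fold change -0.88, edgeR adjusted p = 0.0453), which is the kinase of elongation factor 2 and not a factor itself. Eif1, a scanning factor, had 214.9, 254, 206.2 and 163.5 CPM in the controls and 146.8, 124.4, 105.2 and 106.4 CPM after injury. All injured arteries were below all controls (log2 fold change -0.80, edgeR adjusted p = 0.0163), and Eif4e, which binds the mRNA cap, was also lower (log2 fold change -0.56, edgeR adjusted p = 0.0206). Of 54 ribosome assembly genes tested none was called with the fold criterion, and by the FDR alone Polr1a, the largest subunit of RNA polymerase I, was higher (log2 fold change 0.34, edgeR adjusted p = 0.0361) and Nop10 lower (log2 fold change -0.70, edgeR adjusted p = 0.0238). With single arteries left out none of these genes changed sign. Eif4b passed the FDR in 3 and Eef2k in 1 of the 8 fits. Eif1 lost its FDR without injury 4 (log2 fold change -0.74), Eif4e without control 2 (-0.51), injury 1 (-0.54), injury 3 (-0.54) or injury 4 (-0.57) and Nop10 without control 1 (-0.72), injury 1 (-0.66), injury 2 (-0.67) or injury 4 (-0.68). Eif5a2 kept it only without control 4 or injury 3, with values of -1.62 to -0.92 over the 8 fits, and Polr1a only without control 4, with 0.32 to 0.37. Of the 18 regulators of TOP mRNAs and mTORC1 none passed the FDR, and the smallest p belonged to Rheb (-0.26) and Rptor (-0.33).

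Among 12 other mRNAs known to carry a TOP tract, Pabpc1, the poly(A) binding protein, passed the FDR. It had 305.6, 305.3, 318.4 and 221.5 CPM in the controls and 598.5, 577.7, 473 and 518.8 CPM after injury. Each injured artery stood above each control, with a log2 fold change of 0.91 (standard error 0.16, edgeR adjusted p = 0.0063), short of the fold criterion. The next smallest p was that of Nap1l1 (0.30, edgeR adjusted p = 0.0841). Of 3 ribosomal proteins that carry other names none passed the FDR with all arteries, with a log2 fold change of -0.19 for Gnb2l1 (Rack1). Without control 4 Gnb2l1 passed it at -0.33 (edgeR adjusted p = 0.0229).

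The proteins of the mitochondrial ribosome formed the nearest comparable family. All 72 were tested, with a median log2 fold change of -0.27, and 67 were lower and 5 higher after injury. The median over all genes tested was -0.06. By the FDR alone 8 passed, all lower, against a background of 6.39% of genes lower. With a fold change above 2 as well, 1 was called lower, against 2.57% of all genes. This was Mrps36 (log2 fold change -1.05, standard error 0.16, edgeR adjusted p = 0.00371), whose product has since been placed with the oxoglutarate dehydrogenase complex. Mrps36 had 18.44, 21.65, 18.43 and 23.49 CPM in the controls and 10.23, 8.342, 11.57 and 9.491 CPM after injury, with a clear gap between the groups. Without control 4 the median of the family was -0.18, against 0.03 for all genes. Then 10 passed the FDR, all lower, against a background of 12.9% of genes lower. The difference between the 2 families was not tested. As a share of all counts the mitochondrial family held 0.165 ± 0.0199% in the controls and 0.156 ± 0.0126% after injury (SD, n = 4), which overlapped.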

How the data were processed

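mRNA sequencing was performed on 4 injured and 4 contralateral control carotid arteries. The authors deposited 1 table of read counts per gene symbol, whole numbers without normalization, for all 8 libraries. The submitters' processing notes name HISAT2 2.0.4, while the counting tool, the genome build, the use of strand and the treatment of reads with several matches are not given in the sources used here. Without strand, overlapping and antisense genes cannot be told apart. No length per transcript was at hand, so levels were not compared between genes.

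Counts were fitted as deposited with edgeR 4.0.16 (R 4.3.3): TMM factors, filterByExpr, the quasi-likelihood test of injury against control over 14359 genes, and Benjamini-Hochberg adjustment. Calls required a fold change above 2 as well as an FDR under 0.05, and the FDR alone was reported beside it. Standard errors were derived from the F statistic, with 95% intervals. DESeq2 1.42.0 was run as an alternative. The edgeR and DESeq2 steps were tested on simulated data with known fold changes. Paralog ratios took 0.5 counts as prior and an exact permutation test. The floor of 3 counts covers counting error only. Alternatives covered other scalings and filters, the replicate number as a block and each artery left out. The fits with the members' total as library size and with control 4 and injury 3 left out together, and the adjustment of the paralog ratios without the Rpl3l pair, were chosen after seeing the data.

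The members, lists and tests were chosen with earlier results of these data known. Members were named if they were called, were among the 10 smallest p or the 5 largest or 5 smallest log2 fold changes, belonged to the lists of roles or paralogs, or were among up to 4 whose call differs without control 4. A further part of the rule, the 3 most abundant members per length, could not be applied. From other lists the called genes were named, or else those with the 2 smallest p. Rps6, Rps20, Rpl12, Eif4b and Eef2k fall outside this rule and were chosen after their values were seen. All columns of the table were used. Values of 2 genes are not reported here. Start sequences came from RefSeq (GRCr8).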

Additional observations from a re-analysis of the deposited data

Results flagged for a closer look

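In 116 groups of 4 arteries, the gap between the lowest or highest value and its neighbour was divided by the range of the group, and 6 passed Dixon's 95% critical value for a group of 4. Chance alone gives about 1 in 20 groups, here 5.8. Control 4 was the distant library in 3 of the 6. It lay below the other controls for Rpl5 (380.8 against 586.7 CPM in the nearest control, ratio 0.881) and for Rps4x (69.91 against 107.1 CPM, ratio 0.83), and above them for the share of counts in mitochondrial ribosomal protein genes (0.1949 against 0.157%, ratio 0.888). Injury 3 lay below the other injured arteries for Rplp0 (1068 against 1277 CPM, ratio 0.86). Control 1 lay above the other controls for Rps17l (7.779 against 3.881 CPM, ratio 0.851), and injury 4 lay above the other injured arteries for Rps19bp1 (23.81 against 16.1 CPM, ratio 0.983).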

How the results depend on the processing

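Across 21 alternative fits, the count of members called with the fold criterion stayed at 0 except for 1 call with DESeq2, 1 without the low-count filter and 0 to 1 with single arteries left out (1 without control 4 or injury 2), each time Rpl3l, and 1 with control 4 and injury 3 left out, Rps15al1. Members passing the FDR alone numbered 5 with DESeq2 (2 higher, 3 lower), 4 with library totals only (all higher, where the 1 of the main comparison was lower), 4 with the members' total as library size, 16 with control 4 and injury 3 left out, and 0 with upper-quartile factors, with at least 10 counts in every sample, with the replicate block and with the replicate block with upper-quartile factors. With single arteries left out this count ran from 0 to 20, and control 4 gave the 20, while the 1 passing was Rps17l without control 1, Rpl6 without injury 3 and Rpl3l without injury 2 or without a filter. The replicate block left the members' median at -0.05. It also gave 0 translation factor genes, 0 assembly genes and 1 mitochondrial ribosomal protein gene with the fold criterion, against 8.27% of all genes. No source ties an equal number to 1 animal. Deviations from the group mean, taken over all genes, had correlations of 0.36, 0.49, -0.58 and -0.45 between control and injury 1 to 4, and only control 2 matched its own number best. The strongest correlation, 0.81, was that of control 4 with injury 3, the libraries rich in neuron genes. The call of Eif5a2 among translation factors became 0 with library totals only, without a filter, with at least 10 counts, and with the replicate block under TMM or upper-quartile factors, and 0 to 1 with single arteries left out (1 only without control 4 or injury 3). The mitochondrial count was 2 with DESeq2, both lower, against 3.24% of all genes called lower. It was 0 with upper-quartile factors, library totals only or the block with upper-quartile factors. With single arteries left out it was 0 to 2 (2 without control 1, against 1.87% of all genes lower, and 0 without control 4 or injury 2). The median log2 fold change of the members ran from -0.15 without control 4 to 0.03 without injury 3. Library totals alone shifted the median of all genes from -0.06 to 0.12 and that of the members from -0.05 to 0.13, so directions near 0 hold only relative to it. The difference in share became -0.0201 points with TMM effective totals and -0.0369 with RLE factors, and with single arteries left out it ran from 0.0820 (without control 4) to 0.288 (without injury 3). The difference in log2 ratio was 4.72 for Rpl3l to Rpl3 and 2.90 with a prior of 2 counts, which shows its dependence on the prior. The differences of 0.68 for Rps27l to Rps27 and 0.85 for Rps4y2 to Rps4x passed only when that pair was counted in the adjustment (0.0476, against 0.0571 without it), and with it counted they ran from 0.51 to 0.76 and from 0.72 to 0.95 with single arteries left out, with adjusted p of 0.0714 or 0.0952 without control 1, injury 2 or injury 3.

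Some genes with a fold change near 0 changed sign, with none past the FDR in the fit where it did. With library totals only the log2 fold changes were 0.10 for Rplp2, 0.014 for Rpl4, 0.12 for Rpl31, 0.12 for Rps26, 0.12 for Rpsa, 0.066 for Rpl7l1, 0.051 for Rpl22l1 and 0.0011 for Gnb2l1. With upper-quartile factors they were 0.0023 for Rpl31, 0.021 for Rps26 and 0.00099 for Rpsa, with the replicate block added 0.0078, 0.023 and 0.038, and with DESeq2 -0.0012 for Rps10. With single arteries left out the values ran from -0.11 to 0.12 for Rpl5, -0.10 to 0.13 for Rpl22, -0.096 to 0.085 for Rps10, -0.030 to 0.20 for Rpl35, -0.087 to 0.46 for Rps28, -0.062 to 0.20 for Rps27l, -0.12 to 0.10 for Rps19bp1, -0.22 to 0.0030 for Rpsa, -0.20 to 0.045 for Rpl31, -0.15 to 0.0013 for Rps26 and -0.24 to 0.0069 for Rpl22l1. For none of these results was the cause tested.

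Depth limits the 15 of 84 members with under 1000 counts in all, and reads shared between gene copies limit any member with near-identical copies.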

Other observations

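Among members with at least 1000 counts in all, Rpl30 and Rpl12 varied most between arteries of a group. Rpl30 had a coefficient of variation of 33.3% in the controls and 60.4% after injury, and its counts were 444, 605, 401 and 815 in control 1 to 4 and 154, 372, 417 and 596 in injury 1 to 4. Rpl12, a protein at the base of the stalk, had 37.1% and 55.2%, with counts of 1323, 884, 524 and 1364 in the controls and 1481, 688, 546 and 1467 after injury. In both groups of Rpl12 libraries 1 and 4 were high and library 3 was lowest. Across the 83 members tested only Rps9 had its 4 libraries in the same order in both groups, against 3.38% of all genes tested.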
